A study of Rattus norvegicus with 12 samples.

Results

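Bone of ovariectomized (OVX) rats that had eaten a blueberry (BB) diet for a short time before puberty was compared with bone of OVX rats that had eaten only the control diet. The comparison used 6 of the 12 arrays of the series, 3 pools of the short-term BB group (STBB OVX) and 3 pools of the OVX group, taken by their labels. It covered all 31042 probe sets of the Affymetrix rat genome array that are not array controls, of 31099 in the table, and the 14217 genes that these probe sets name one at a time.

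Both groups were female Sprague-Dawley rats that lost their ovaries on postnatal day (PND) 60 and were sacrificed on PND 81, so every pool compared came from animals without ovaries. The OVX group was fed the casein control diet throughout. The STBB OVX group was fed a diet with 10% BB from PND 20 to PND 34 and the control diet afterwards, so that 47 days lay between the last BB and sampling. The series also holds sham-operated rats on the control diet (Sham) and OVX rats fed BB until sacrifice (LTBB OVX), with 3 pools each. Every array measured equal amounts of RNA from 2 to 3 rats, and each group stood for at least 8 rats, so that differences between single rats of a pool are not visible. The tissue is named femur in the labels and right tibia in the study's methods. The question was which genes of adult OVX bone still differed after a short exposure to BB in early life.

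Long bone carries several tissues in 1 sample: osteoblasts that lay down bone matrix, osteoclasts that resorb it, the cartilage of the growth plate, blood-forming marrow, and any attached muscle and tendon. Skeletal muscle fibres contract by sliding myosin-based thick filaments along actin-based thin filaments between Z-discs, on calcium released from the sarcoplasmic reticulum. Slow fibres use the beta myosin heavy chain and depend on oxidative metabolism, whereas fast fibres use other heavy chains, the fastest of them type IIb, and break down glycogen quickly. Ovariectomy is a model of the bone loss that follows the loss of oestrogen.

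The deposited values are log2 values from which the authors' normalization took each probe set's median over the 12 arrays, so they show differences between arrays and no level of a gene, and the bone identity of the sample could not be checked against marker levels. A value of 0 is the middle of the 12 arrays. The 3 Sham arrays stood apart from all others: their mean value over the 122 genes of 8 muscle lists was 2.33 to 3.08, against -0.99 to -0.59 in OVX and -0.05 to 0.28 in STBB OVX, and over 20 osteoblast genes it was -1.96 to -1.76, against -0.05 to 0.07 in the OVX and STBB OVX pools. Pool 3 of LTBB OVX also stood apart from pools 1 and 2 of its group, with a muscle value of 0.18 against -0.76 and -1.02. These arrays are not part of the comparison, but they enter the estimate of the spread when all 12 arrays are fitted together.

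Genes of skeletal muscle were higher in the STBB OVX pools than in the OVX pools, and most other gene groups lay close to 0. The median log2 difference, STBB OVX minus OVX, was 0.57 over the 122 muscle genes, and 115 of them were above 0. Over all 14217 genes it was -0.01, with 45.5% of the genes above 0. In 82 of the 122 muscle genes every STBB OVX pool lay above every OVX pool, and in none did every pool lie below. Over all genes the pools lay apart in this way with STBB OVX higher in 4.26% and with STBB OVX lower in 5.13%. In bulk RNA, fewer muscle cells and less muscle RNA per cell cannot be told apart, and the amount of muscle tissue in each pool was not measured apart from these genes.

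**Figure D1:**
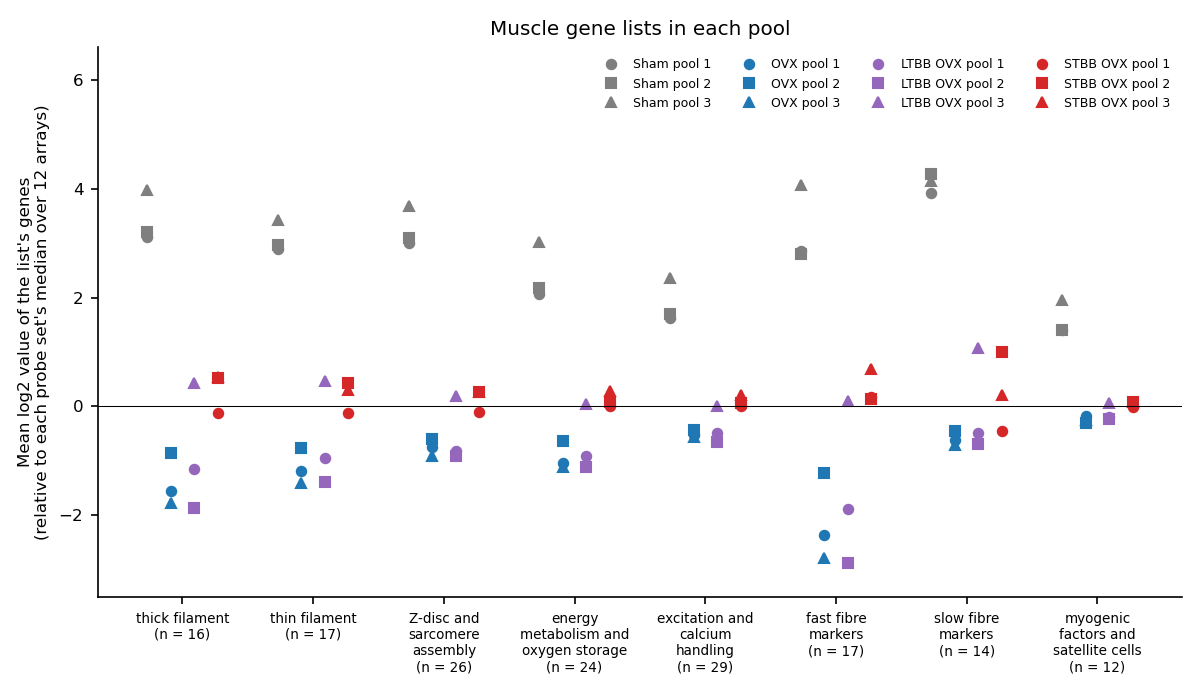
Mean log2 value of the genes of 8 skeletal muscle lists in each of the 12 pools, relative to each probe set's median over the 12 arrays; colours are the 4 groups and symbols the pool numbers. The STBB OVX pools (red) lie above the OVX pools (blue) with a clear gap for the fast fibre markers, while for the slow fibre markers STBB OVX pool 1 and OVX pool 2 both lie at -0.45. The Sham pools lie above both groups in all 8 lists.

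Whether single genes passed a test depended on which arrays gave the spread. In limma's fit of all 12 arrays, the planned test, 0 probe sets (0.0%) and 0 genes (0.0%) passed a Benjamini-Hochberg adjusted p of 0.05, and the lowest adjusted p of any gene was 1. At an unadjusted p under 0.05 that fit held 922 probe sets and 411 genes, of which 224 genes (1.58%) were higher and 187 (1.32%) lower. In the fit of the 6 arrays of the 2 groups alone, 55 probe sets (0.177%) were called higher and 1 (0.00322%) lower, and 40 genes (0.281%) were called higher and 0 lower, with 669 genes at an unadjusted p under 0.05. The standard error (SE) differed between the fits: its median over the 40 called genes was 0.41 with 12 arrays and 0.18 with 6. The median standard deviation (SD) of these genes between pools was 0.31 in OVX and 0.24 in STBB OVX, and 0.65 in Sham and 0.90 in LTBB OVX. With LTBB OVX pool 3 left out of the 12 arrays, 8 genes were called, all 8 among the 40. The count of 40 itself rested on the pools: it was 0 without STBB OVX pool 2, 5 without STBB OVX pool 3, 13 without STBB OVX pool 1, 9 without OVX pool 3, 11 without OVX pool 1 and 48 without OVX pool 2. Klhl41, Cacna1s and Tmod4 passed without any of these pools except STBB OVX pool 2. Of the 59 genes of the thick filament, thin filament and Z-disc lists 58 were above 0, and 55 to 58 were above 0 with any of the 6 pools left out.

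**Figure D2:**
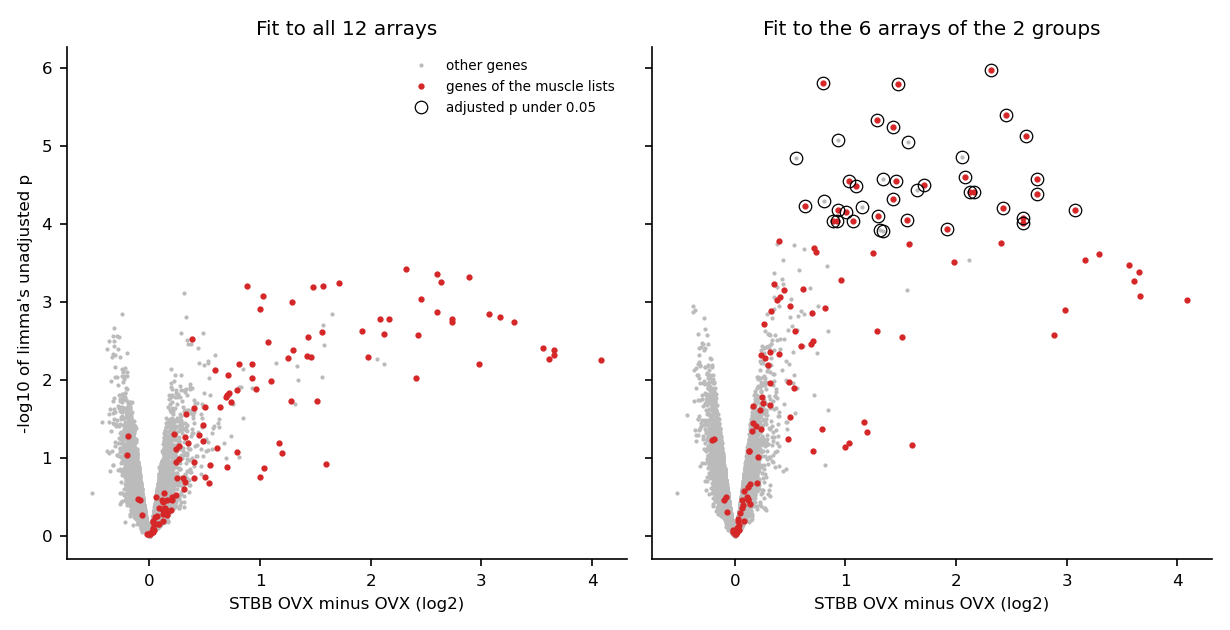
Log2 difference between STBB OVX and OVX (horizontal) against -log10 of limma's unadjusted p (vertical) for 14217 genes, in the fit of all 12 arrays and in the fit of the 6 arrays of the 2 groups. Red points are the genes of the muscle lists and open circles the genes with an adjusted p under 0.05, which number 0 in the left panel and 40 in the right panel, all to the right of 0.

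All 40 genes called in the fit of the 2 groups had their 3 STBB OVX pools above their 3 OVX pools, with log2 differences from 0.55 to 3.07 and a median of 1.45, and 30 of them belong to the muscle lists. The strongest call was Klhl41, a kelch protein that stabilizes nebulin in the sarcomere. It read -2.28, -1.83 and -2.22 in the OVX pools and -0.07, 0.07 and 0.61 in the STBB OVX pools. The gap between the groups was larger than the range within either of them, and the log2 difference was 2.31 (SE 0.18 with 6 arrays, adjusted p = 0.00764 by limma; SE 0.48 with 12 arrays). Values such as -0.07 and 0.07 mirror each other where both arrays are the middle pair of the 12. Cacna1s, the voltage sensor of the muscle calcium release, had a smaller but even difference of 0.80 (SE 0.07, adjusted p = 0.00764), with -0.64, -0.69 and -0.56 in OVX and 0.20, 0.21 and 0.09 in STBB OVX. Tmod4, which caps the pointed end of the thin filament, read -1.26, -1.17 and -1.64 against -0.01, 0.16 and 0.21, a difference of 1.48 (SE 0.12, adjusted p = 0.00764). The SDs of Klhl41, Cacna1s and Tmod4 between pools were 0.24, 0.06 and 0.25 in OVX and 0.36, 0.07 and 0.12 in STBB OVX. A small spread helps a gene to a low p, so these SDs are no separate evidence that the pools were alike.

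The other 37 called genes cover most parts of the fibre. From the Z-disc and its links came Myot, Des, Trim54, Pdlim3, Ldb3, Tcap and, outside the lists, Mypn and Ankrd23. From the filaments came Ttn, Tnni2, Tnnt3, Mybpc2, Neb, Tpm1 and Myom2. From calcium handling came Ryr1, Hrc, Casq1, Atp2a1 and Cacng1, and from energy metabolism Cox8b, Eno3, Pygm, Adss1, Ampd1, Ckmt2, Cox6a2, Pgam2 and, outside the lists, Ppp1r3a, which directs phosphatase to glycogen. The rest were Myf6, a muscle transcription factor, and, outside the lists, Hjv, Popdc3, Sh3bgr, Asb2, Hhatl, Apobec2 and the imprinted non-coding RNA H19. The genes of the lists were chosen with earlier results of these data known, so their number among the calls is a description.

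Among the called probe sets, 6 of the 55 higher ones and the 1 lower one carry no gene name here. The lower one read 0.43, 0.20 and 0.48 in OVX and -0.34, -0.43 and -0.20 in STBB OVX, a difference of -0.69 (SE 0.10, adjusted p = 0.0434 by limma with 6 arrays).

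The largest differences in size were in the fast contractile genes, and most of them were not among the calls. Myh4, the type IIb myosin heavy chain, read -4.77, -1.65 and -5.26 in OVX and 0.36, -0.36 and 0.57 in STBB OVX. All STBB OVX pools lay above all OVX pools, but OVX pool 2 was more than 3 log2 units above the other OVX pools. The log2 difference of 4.08, a 16.9-fold ratio of the geometric means, had an SE of 0.81 and an adjusted p of 0.178 by limma with the 6 arrays. Without OVX pool 2 the difference was 5.20 and passed (adjusted p = 0.000602). Pool 2 was likewise the least low OVX pool for Acta1, the skeletal alpha actin, with -3.57, -1.89 and -4.99 against -0.15, 0.15 and 0.51 (difference 3.65, SE 0.64, adjusted p = 0.10 by limma with 6 arrays). The same was seen for Myl1, a fast light chain (3.66), Myl11, the fast regulatory light chain (3.61), Tnnc2, the fast troponin C (3.56), Ckm, the muscle creatine kinase (3.29), and Actn3, the fast alpha actinin (3.17).

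Promoters of 4 of these genes are shown because they bring together the largest difference of a heavy chain and of an actin (Myh4, Acta1) and called genes of the sarcomere and of the respiratory chain (Klhl41, Cox8b). They are the 250 bases before the annotated start, from RefSeq on GRCr8, read 5′ to 3′ on the strand of the gene, and were chosen after the values were seen. Capitals mark the E-box CAGCTG, the letters TATAAA, CArG boxes and MEF2 sites, each searched on both strands.
Myh4 (chr10:52421898-52422147, plus strand): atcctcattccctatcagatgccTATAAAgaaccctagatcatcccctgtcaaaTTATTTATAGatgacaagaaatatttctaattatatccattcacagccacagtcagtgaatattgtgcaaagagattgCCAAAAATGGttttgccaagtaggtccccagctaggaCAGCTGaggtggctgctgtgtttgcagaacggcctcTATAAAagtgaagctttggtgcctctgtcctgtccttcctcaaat
Acta1 (chr19:68784195-68784444, minus strand): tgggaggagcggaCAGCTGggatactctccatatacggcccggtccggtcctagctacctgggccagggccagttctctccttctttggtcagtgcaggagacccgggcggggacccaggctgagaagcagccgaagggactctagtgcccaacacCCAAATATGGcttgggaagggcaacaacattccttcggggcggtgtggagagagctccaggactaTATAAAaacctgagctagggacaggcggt
Klhl41 (chr3:74841868-74842117, plus strand): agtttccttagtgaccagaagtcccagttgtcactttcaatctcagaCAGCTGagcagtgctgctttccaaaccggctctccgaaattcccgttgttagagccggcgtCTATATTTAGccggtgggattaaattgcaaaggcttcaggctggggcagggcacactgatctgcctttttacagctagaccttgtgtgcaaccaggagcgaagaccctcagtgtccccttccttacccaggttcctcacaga
Cox8b (chr1:205408274-205408523, minus strand): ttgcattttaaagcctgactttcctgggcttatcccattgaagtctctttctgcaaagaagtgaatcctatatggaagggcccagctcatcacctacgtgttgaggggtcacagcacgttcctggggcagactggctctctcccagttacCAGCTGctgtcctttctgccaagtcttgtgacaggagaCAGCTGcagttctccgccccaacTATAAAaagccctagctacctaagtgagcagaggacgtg
CAGCTG lies 81 bases before the start of Myh4, 237 before that of Acta1, 203 before that of Klhl41 and 100 and 62 before that of Cox8b. A MEF2 site lies 196 bases before the start of Myh4 and 142 before that of Klhl41, and a CArG box 118 bases before the start of Myh4 and 94 before that of Acta1. In Myh4 one TATAAA, on the other strand, shares letters with the MEF2 site. Of the 40 called genes 32 were found in the promoter table. CAGCTG was in 15 of these 32 (46.9%), against 12.8% of the promoters of the 11733 tested genes found there and 11.9% of all 27457 promoters. A MEF2 site was in 7 (21.9%), against 1.61% of the tested genes and 3.07% of all. TATAAA was in 9 (28.1%, against 8.06% and 13.1%) and a CArG box in 1 (3.12%, against 1.24% and 1.5%). These are matches of letters, and binding of a factor was not measured.

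Thick filament genes were all above 0 in STBB OVX, 16 of 16, with a median difference of 1.24, and in 10 of them the pools did not overlap. Beside this list and those below, 4.26% of all genes had separate higher pools. At an unadjusted p under 0.05 by limma with 12 arrays 1.58% of all genes were higher. In the fit of the 2 groups 0.281% were called higher. In the 12-array fit 9 of the 16 had an unadjusted p under 0.05, and in the fit of the 2 groups 3 were called: Ttn, the giant spring of the sarcomere (2.73), Mybpc2, the fast myosin binding protein C (2.43), and Myom2 of the M-band (1.92). Ttn read -2.70, -1.80 and -3.28 in OVX and -0.17, 0.17 and 0.41 in STBB OVX. The median of the list was 0.80 without STBB OVX pool 2 and 1.75 without STBB OVX pool 1.

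Thin filament genes were above 0 in 17 of 17, with a median of 1.04 and 13 without overlap of the pools. Called in the fit of the 2 groups were 6: Klhl41, Tmod4, Tnni2, Tnnt3, Neb and Tpm1. Tpm1, a tropomyosin of many tissues measured by 7 probe sets, stood out among them because Sham did not exceed STBB OVX. Its means were -0.01 in Sham and 0.15 in STBB OVX, both above OVX (-0.74) and LTBB OVX (-0.52). It read -0.77, -0.46 and -0.98 in OVX and 0.17, 0.03 and 0.25 in STBB OVX, a difference of 0.89 (SE 0.13, adjusted p = 0.0365 by limma with 6 arrays). Tnni2, the fast troponin I, differed by 2.16 (SE 0.27) and its slow counterpart Tnni1 by 0.70 (SE 0.36).

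Z-disc genes were above 0 in 25 of 26, with a median of 0.66, 17 without overlap and 6 called. Myot, which crosslinks actin at the Z-disc, read -2.66, -1.79 and -2.68 in OVX and -0.16, 0.16 and 0.23 in STBB OVX (difference 2.45, SE 0.23). Des, the muscle intermediate filament, read -1.23, -0.98 and -1.03 against -0.03, 0.19 and 0.45 (difference 1.29, SE 0.12). Both had an adjusted p of 0.0134 by limma with 6 arrays, and neither group's range reached the other's.

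Of 29 genes of excitation and calcium handling 26 were above 0, with a median of 0.30, 17 without overlap and 6 called. The release and uptake genes led. Casq1, which binds calcium in the reticulum of fast fibres, differed by 3.07 (SE 0.42, adjusted p = 0.0327 by limma with 6 arrays), Atp2a1, the fast calcium pump, by 2.60 (SE 0.36, adjusted p = 0.0365), and Ryr1, the release channel, by 1.43 (SE 0.14, adjusted p = 0.0136). Pvalb, a calcium buffer of fast fibres, read -2.27, -1.18 and -2.66 in OVX and 0.33, -0.11 and 0.91 in STBB OVX, with an adjusted p of 0.0575 by limma with 6 arrays.

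Energy genes of muscle were above 0 in 23 of 24, with a median of 0.43, 20 without overlap and 8 called. Cox8b, a subunit of cytochrome c oxidase in striated muscle and brown fat, read -2.77, -1.91 and -2.76 in OVX and -0.33, 0.46 and 0.33 in STBB OVX (difference 2.63, SE 0.27, adjusted p = 0.0143 by limma with 6 arrays). Ckmt2, the mitochondrial creatine kinase of the sarcomere, differed by 2.73 (SE 0.35, adjusted p = 0.0265). Adss1, the muscle enzyme of the purine nucleotide cycle, differed by 1.03 (SE 0.12, adjusted p = 0.0252). The respiratory chain and ATP synthase genes that all cells share had a median of 0.01 over 37 members. Of these, 0 were called and 3 had separate higher pools, against 4.26% of all genes. Of the muscle isoforms of this chain Cox8b and Cox6a2 (1.07) were called, and Cox7a1 differed by 0.04 with overlapping pools.

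**Figure D3:**
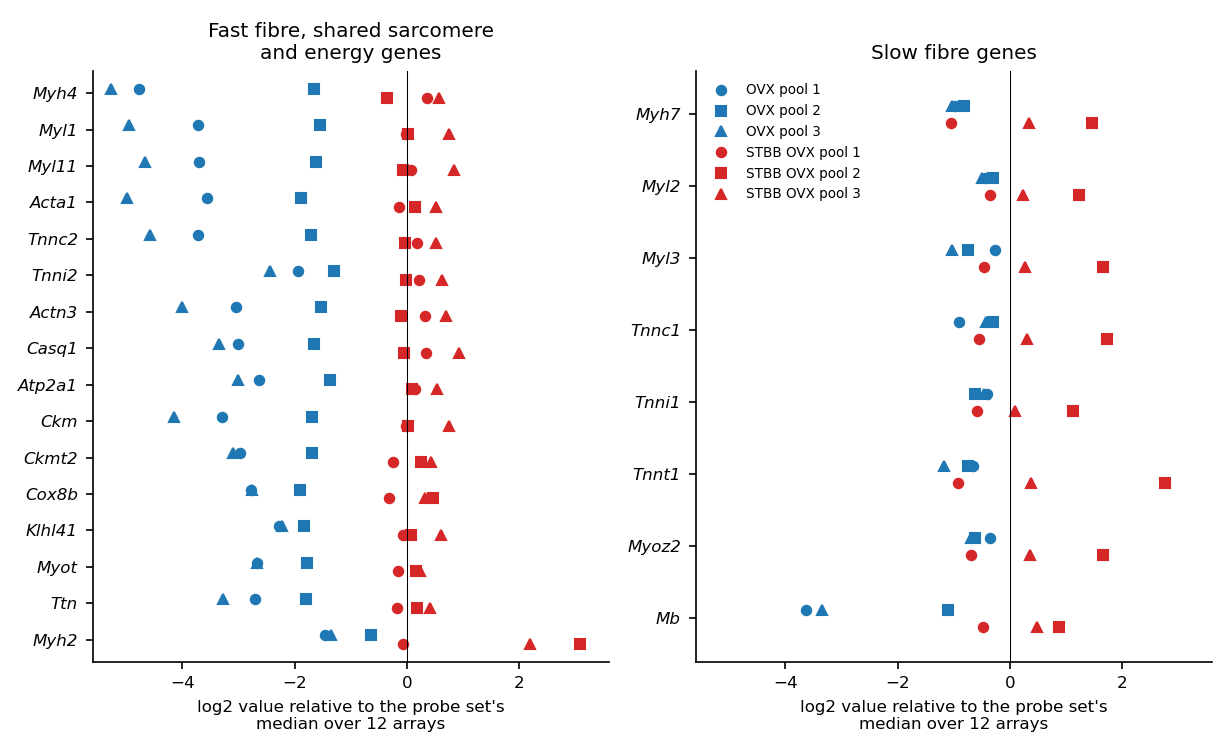
Log2 values, relative to each probe set's median over 12 arrays, of 16 fast, shared and energy genes of muscle (left) and 8 genes of slow fibres (right) in the 3 OVX pools (blue) and the 3 STBB OVX pools (red), with symbols for the pool numbers. On the left all red points lie to the right of all blue points of the same gene, while on the right STBB OVX pool 1 lies among or just below the OVX pools for each gene except Mb.

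Fast and slow fibre genes ordered the pools differently, and the difference between the lists was not tested. The 17 fast fibre markers were all above 0, with a median of 2.43, 16 without overlap and 9 called, and the exception to the separation was Myh1. The 14 slow fibre markers were also all above 0, with a median of 0.75, but in 3 of them alone, Mb, Casq2 and Fabp3, did the pools lie apart, and 0 were called. Mb, the oxygen-storing myoglobin, was by far the largest of these (2.98, SE 0.62, adjusted p = 0.215 by limma with 6 arrays), and fast oxidative fibres also express it.

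The slow genes were high in 1 or 2 of the STBB OVX pools. Tnnt1, the slow troponin T, read -0.66, -0.75 and -1.17 in OVX and -0.93, 2.76 and 0.38 in STBB OVX. Myh7, the slow myosin heavy chain, read -0.98, -0.82 and -1.03 against -1.05, 1.47 and 0.34. Pool 1 of STBB OVX lay within or below the OVX pools for both genes, pool 2 was highest, and neither difference, 1.60 (SE 0.76) and 1.20 (SE 0.51), passed a test (adjusted p = 0.999 by limma with 6 arrays for each). Tnnc1, Myl3, Myoz2 and Tnni1 showed the same order. The median of the slow list was 0.33 without STBB OVX pool 2 and 1.13 without STBB OVX pool 1, whereas that of the fast list stayed between 2.21 and 2.84 whichever of the 6 pools was left out.

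Averaged over the list, the fast genes read -2.37, -1.22 and -2.78 in the OVX pools and 0.18, 0.14 and 0.69 in the STBB OVX pools, and the slow genes -0.61, -0.45 and -0.72 against -0.45, 1.0 and 0.21. Fast minus slow was -1.75, -0.76 and -2.07 in OVX and 0.63, -0.85 and 0.48 in STBB OVX. Pools 1 and 3 of STBB OVX thus lay above the OVX range and pool 2 inside it. As the values are centred, the sign of fast minus slow does not show which fibre genes were more abundant in a pool. Myh2, the heavy chain of fast oxidative type IIa fibres, was also highest in pools 2 and 3 of STBB OVX. It read -1.45, -0.64 and -1.36 in OVX and -0.07, 3.08 and 2.19 in STBB OVX. STBB OVX pool 1 was much lower than pools 2 and 3 but above every OVX pool, so the pools of Myh2 lay apart.

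Genes that regulate the muscle lineage differed less than those of the finished fibre. Of 12 myogenic and satellite cell genes 10 were above 0, with a median of 0.12 and 6 without overlap. Myf6, the factor of mature fibres, was the called member, with -0.63, -0.82 and -0.63 in OVX and 0.19, 0.10 and 0.64 in STBB OVX (difference 1.0, SE 0.14, adjusted p = 0.0337 by limma with 6 arrays). Smpx, a small protein of muscle stretch, differed by 1.57 (SE 0.25, adjusted p = 0.0575).

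The study named 32 of the measured muscle genes in its own account of these arrays. All 32 were above 0, with a median of 1.47, 22 without overlap and 8 called in the fit of the 2 groups; they had been picked on these same arrays, and so give no independent evidence on the direction. Non-muscle actins, myosins and their regulators, the proteins that other cells use for shape and movement, had a median of -0.01 over 26 genes. Without overlap 0 were higher and 3 lower, against 4.26% and 5.13% of all genes, and 0 were called.

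The genes with the larger separate rises in STBB OVX were nearly all higher in Sham than in LTBB OVX as well. A difference above 0.5 with no overlap of the pools was found in 89 genes with STBB OVX higher and in 0 with STBB OVX lower, and 56 of the 89 are on the muscle lists. Of the 89, 86 (96.6%) were also more than 1 log2 unit higher in Sham than in LTBB OVX, groups that do not enter the comparison, against 8.4% of all genes. The other way round, the 86 were 7.2% of the 1194 genes with that excess in Sham. The 3 exceptions were Tpm1 and Cytl1, whose excess in Sham of 0.51 and 0.89 fell short of 1, and S100b, at -1.91. Most of the 605 genes (4.26%) with separate higher pools lay under the bound of 0.5 and are not in these counts. Cartilage genes, which rose by less, had a list mean of -3.39 in Sham, against 0.07 in OVX and 0.32 in STBB OVX. These bounds were chosen after the values were seen, and no test was made.

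Outside muscle, 39 lists were read, and their medians ranged from -0.14 to 0.28, with 36 of them within 0.1 of 0. In 1 of the 39, smooth muscle, a gene was called in the fit of the 2 groups, and that gene was Des, which is also on the Z-disc list.

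**Figure D4:**
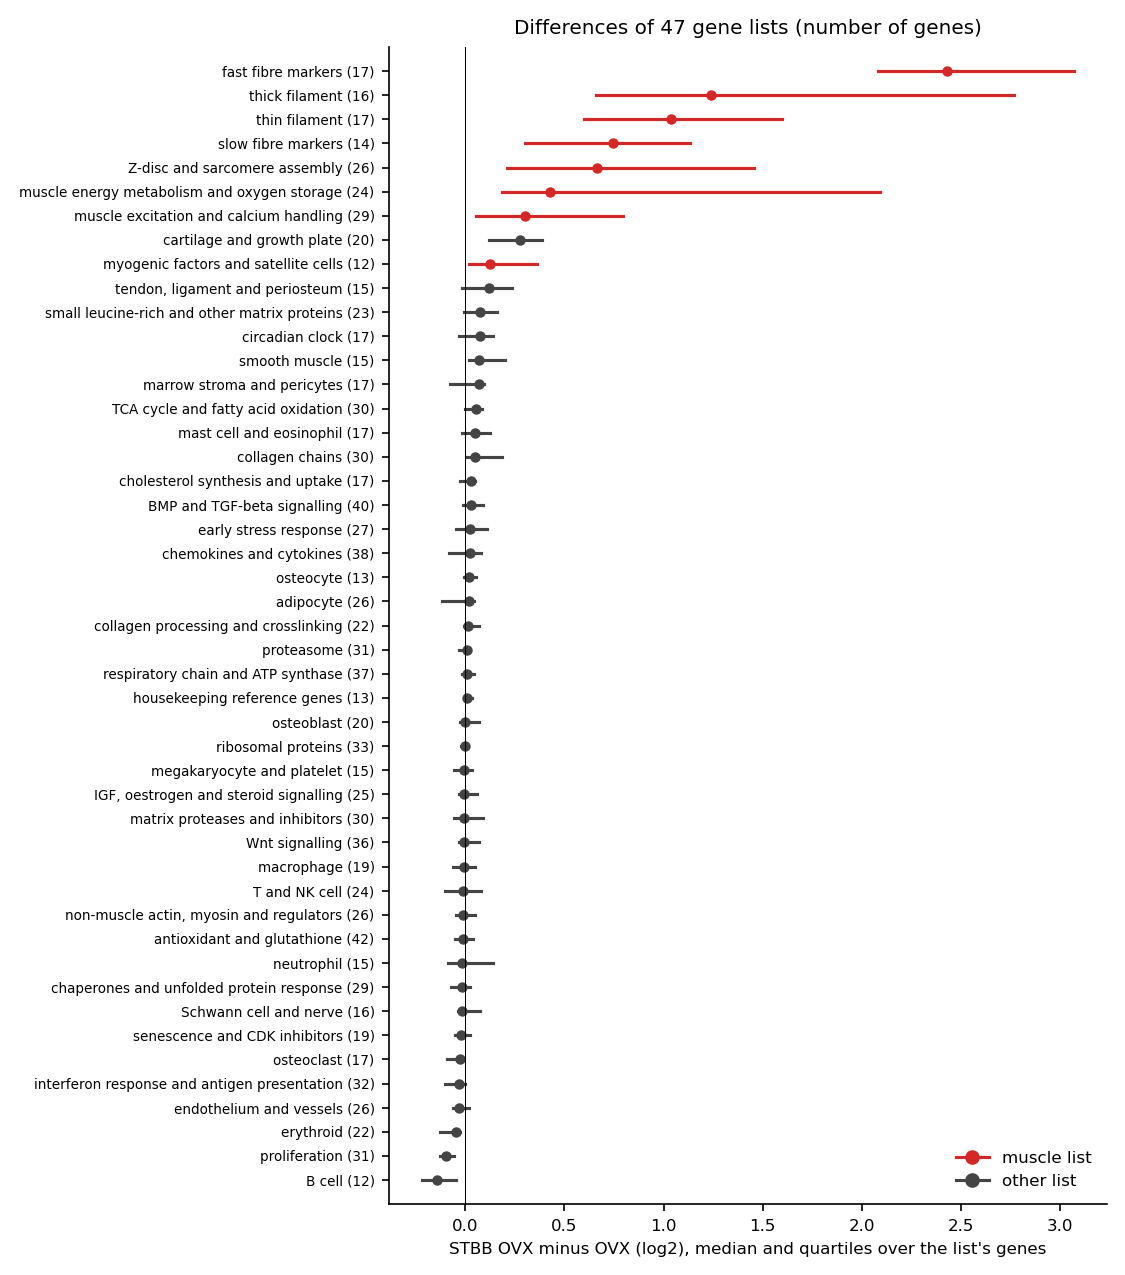
Median (point) and quartiles (line) of the log2 difference STBB OVX minus OVX over the genes of 47 lists, with the number of genes in parentheses; muscle lists are red. The fast fibre list leads at 2.43, and of the lists outside muscle cartilage lies highest at 0.28 and B cells lowest at -0.14.

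Cartilage genes were higher in STBB OVX, though by less than the muscle genes and without any that passed the adjusted test in either fit. Of 20 genes of cartilage and growth plate 18 were above 0, with a median of 0.28. With 12 arrays 8 were higher at an unadjusted p under 0.05 by limma, against 1.58% of all genes. In 4 (Cytl1, Hapln1, Comp and Col9a3) the pools lay apart, against 4.26% of all genes. Hapln1, which links aggrecan to hyaluronan, read 0.07, 0.03 and 0.00 in OVX and 1.02, 0.19 and 0.33 in STBB OVX (difference 0.47, SE 0.18 with 12 arrays). Comp, a matrix protein of cartilage and tendon, read 0.30, -0.11 and 0.36 against 0.85, 0.41 and 0.50 (difference 0.40, SE 0.16). Cytl1, a secreted protein of chondrocytes, read -0.07, -0.49 and -0.54 against 0.94, 0.10 and 0.02 (difference 0.72, SE 0.26). In all 3 genes STBB OVX pool 1 was the highest. The other STBB OVX pools lay nearer to the highest OVX pool than to STBB OVX pool 1. The chains of collagen IX, which coats cartilage fibrils, Col9a1 (0.39), Col9a2 (0.35) and Col9a3 (0.39), Acan, the main cartilage proteoglycan (0.31), and Col2a1, the main cartilage collagen (0.22), were higher by less. The list mean was 0.23, -0.09 and 0.05 in the OVX pools and 0.56, 0.26 and 0.15 in the STBB OVX pools, which overlapped. The median difference of the list was 0.17 without STBB OVX pool 1, 0.19 without OVX pool 2 and 0.44 without OVX pool 1.

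Tendon and ligament genes had a median of 0.12 over 15 members, which was 0.05 without STBB OVX pool 3. In 3 of the 15 STBB OVX was higher without overlap and in 1 lower, against 4.26% and 5.13% of all genes. The pools lay apart with STBB OVX lower in Tnc, the matrix protein tenascin C (-0.12), named after its value was seen. Besides Comp, they lay apart with STBB OVX higher in Fmod, a collagen-binding proteoglycan (0.47), and Cilp2, a matrix protein of cartilage and tendon, which read -0.38, -0.22 and -0.32 in OVX and 0.15, 0.24 and -0.01 in STBB OVX (difference 0.43, adjusted p = 0.13 by limma with 6 arrays). S100b, a calcium-binding protein that chondrocytes and Schwann cells share, read -0.08, -0.18 and 0.27 against 0.76, 0.45 and 0.59 (difference 0.60, SE 0.17 with 12 arrays). The Schwann cell and nerve list to which it belongs had a median of -0.02.

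Bone-forming and bone-resorbing genes lay close to 0 as groups. The median was 0.00 over 20 osteoblast genes, 10 of them above 0 and none with separate pools, 0.02 over 13 osteocyte genes and -0.03 over 17 osteoclast genes, of which 3 were above 0 and none had separate pools. The osteoclast median was -0.10 without OVX pool 1 and 0.00461 without OVX pool 3. The osteoblast genes spanned differences from -0.06 to 0.11 and the osteoclast genes from -0.15 to 0.03. In the osteocyte list Tnfrsf11b, which encodes osteoprotegerin, the decoy that restrains osteoclasts, read 0.35, -0.03 and -0.06 in OVX and 0.92, 0.15 and 0.34 in STBB OVX (difference 0.38, SE 0.17, unadjusted p = 0.0428 and adjusted p = 1 by limma with 12 arrays), and its pools overlapped. Collagen chains had a median of 0.05 over 30 genes, and the 5 with an unadjusted p under 0.05 were Col8a2 (0.40) and the cartilage chains Col2a1, Col9a1, Col9a2 and Col9a3. Of the 34 genes outside muscle that the study named, 26 were above 0, with a median of 0.08. In 3 STBB OVX was higher without overlap, against 4.26% of all genes, and 0 were called.

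Signals to bone cells showed single genes rather than groups. Wnt signalling had a median of -0.01 over 36 genes, BMP and TGF-beta signalling 0.03 over 40, and IGF, oestrogen and steroid signalling -0.01 over 25. Wnt16, a Wnt ligand of cortical bone, read -0.96, 0.12 and -0.35 in OVX and -0.13, 0.88 and 0.59 in STBB OVX, which overlapped (difference 0.85, SE 0.26, unadjusted p = 0.00727 and adjusted p = 1 by limma with 12 arrays). Igfbp6, which binds insulin-like growth factor II, differed by 0.53 (SE 0.16), but its pools overlapped and it passed the adjusted test in neither fit. Senescence genes and CDK inhibitors had a median of -0.02 over 19 genes, with none whose pools lay apart.

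**Figure D5:**
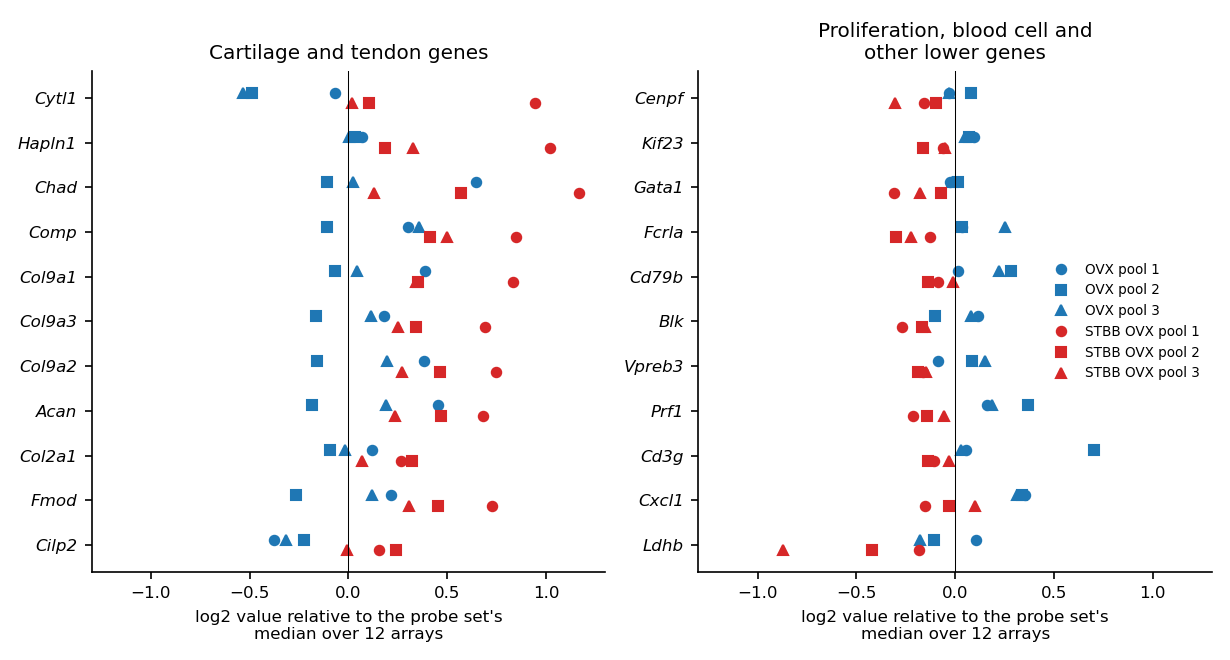
Log2 values, relative to each probe set's median over 12 arrays, of cartilage and tendon genes (left) and of proliferation, blood cell and other genes that were lower in STBB OVX (right) in the 3 OVX pools (blue) and the 3 STBB OVX pools (red). Differences are a fraction of those of the muscle genes, the horizontal axis runs from -1.3 to 1.3, and on the left STBB OVX pool 1 tends to lie farthest to the right.

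Most genes of proliferation were slightly below 0. Of 31 proliferation genes 30 were below 0, with a median of -0.10. In 7 of the 31 all STBB OVX pools lay below all OVX pools, against 5.13% of all genes, and 0 had an unadjusted p under 0.05 with 12 arrays. Cenpf, a kinetochore protein, read -0.03, 0.08 and -0.03 in OVX and -0.16, -0.10 and -0.30 in STBB OVX (difference -0.19, SE 0.10). The list mean was -0.10, 0.05 and -0.04 in OVX and -0.09, -0.12 and -0.14 in STBB OVX, with STBB OVX pool 1 above OVX pool 1, and without OVX pool 2 the median difference was -0.05.

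Of 12 B cell genes 10 were below 0, with a median of -0.14. In 4 of the 12 (Fcrla, Cd79b, Blk and Vpreb3) STBB OVX lay lower without overlap, against 5.13% of all genes. The list means overlapped, with -0.08, 0.04 and 0.11 in OVX and -0.08, -0.16 and -0.07 in STBB OVX, and without OVX pool 3 or STBB OVX pool 2 the median was -0.09. Cd79b, a chain of the B cell receptor, read 0.01, 0.28 and 0.22 against -0.09, -0.14 and -0.01 (difference -0.25, SE 0.22 with 12 arrays). Erythroid genes had a median of -0.05, with 19 of 22 below 0 and 2 (against 5.13% of all genes) lower without overlap. The median was -0.16 without OVX pool 1 and -0.02 without OVX pool 2, and the list means overlapped, with -0.21, 0.04 and -0.04 in OVX and -0.19, -0.11 and -0.10 in STBB OVX. T and NK cell genes had a median of -0.01, that of all genes, and 4 of 24, against 5.13% of all genes, lay lower without overlap, among them Prf1, the pore protein of killer cells (-0.38), Cd3g (-0.35) and Lck (-0.22). None of these passed the adjusted test in either fit. Neutrophil, macrophage and megakaryocyte lists had medians between -0.02 and 0 and 1 gene in all with separate pools.

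The 15 lowest differences among genes with separate pools and an unadjusted p under 0.05 were from -0.43 to -0.32, against 2.60 or more in the 15 highest, and belonged to no one list. They were Ldhb, Cldn22, Fdxacb1, Cxcl1, Stra6l, Sbsn, Tnfsf9, Pcdhb21, H1f6, Ighvl1, Klhl14, Wfdc3, Ska1, Wnt10a and Aars2. Ldhb, the lactate dehydrogenase subunit typical of heart and oxidative tissue, read 0.11, -0.11 and -0.18 in OVX and -0.18, -0.42 and -0.87 in STBB OVX (difference -0.43, SE 0.18 with 12 arrays). Cxcl1, a chemokine that draws neutrophils, was even within OVX at 0.35, 0.34 and 0.31 and read -0.15, -0.03 and 0.10 in STBB OVX (difference -0.36, SE 0.10, unadjusted p = 0.00322). Their adjusted p was 1 with 12 arrays and 0.943 and 0.215 with 6 arrays by limma.

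The clock genes had a median of 0.07 over 17 members, which was 0.02 without OVX pool 2. In 3 of the 17 STBB OVX was higher without overlap and in 2 lower, against 4.26% and 5.13% of all genes. A list median does not show the hour of sampling. Bhlhe41, a repressor of the clock, differed by 0.46 (SE 0.24 with 12 arrays) with separate pools, and Nr1d1, the repressor REV-ERB alpha, by 0.37 (SE 0.13) with overlapping pools. The hour of sacrifice is not in the labels, and its part in these values was not tested.

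With the probe sets of the muscle lists left out, the pools of the groups were about as unlike each other as pools of 1 group. Over all probe sets the root mean square difference was 0.185 to 0.233 between OVX pools (3 pairs), 0.187 to 0.201 between STBB OVX pools (3 pairs) and 0.188 to 0.241 between pools of different groups (9 pairs). Over the probe sets of the muscle lists it was 0.343 to 0.78 within OVX, 0.465 to 0.714 within STBB OVX and 0.745 to 1.71 between the groups, and 8 of the 9 pairs between groups exceeded every pair within. The exception was STBB OVX pool 1 against OVX pool 2, at 0.745. Without those probe sets the median between the groups was 0.196, against 0.185 within OVX and 0.185 within STBB OVX. Muscle genes off the lists, such as Mypn, Ankrd23 and Ppp1r3a, stayed in. OVX pool 2 was the pool nearest to STBB OVX in the muscle genes.

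On the first principal component of the 6 arrays over all genes, which held 44.2% of the variance, the OVX pools lay at -13.2, -1.41 and -14.6 and the STBB OVX pools at 8.64, 8.72 and 11.8. With the muscle lists left out, the first component (31.1%) placed the OVX pools at -12.5, 9.54 and -3.97 and the STBB OVX pools at 7.82, -2.09 and 1.18, which overlapped, and the second (21.8%) placed them at -0.98, -7.68 and -8.29 against 3.9, 5.46 and 7.58, which did not. OVX pool 2 thus stood apart from OVX pools 1 and 3 on the first component in both cases. Muscle genes off the lists, such as Mypn, Ankrd23 and Ppp1r3a, stayed in when the lists were left out, and their part in these components was not tested.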

How the data were processed

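RNA pooled from 2 to 3 rats per array was hybridised to 12 Affymetrix rat genome arrays, 3 for each of 4 groups. The authors summarised the scans with GCOS and RMA and normalized them in GeneSpring, and the deposited values are log2 values whose median over the 12 arrays is 0 for each probe set. Array intensities were not used here, so neither a gene's level nor detection can be given, and the number of arrays limits the precision.

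Groups were taken from the labels. The 57 control probe sets were left out of 31099. Of the 31042 others, 20826 carried 1 gene symbol in the platform annotation, 436 several and 9780 none, and 20758 symbols were updated through gene identifiers. Probe sets with the same single symbol were averaged to 1 value per gene, as 4525 of 14217 genes had several. limma 3.58.1 in R 4.3.3 fitted the 4 group means over 12 arrays, which is the planned test, and the contrast STBB OVX minus OVX was adjusted by Benjamini-Hochberg over all features with a threshold of 0.05. The fit of the 2 groups alone was an alternative. Other alternatives were the 9 arrays of OVX rats, array weights, a second quantile normalization, centring of arrays, ordinary variances, probe sets with the larger SD, 1 probe set per gene, a replicate block and leaving out each array. Leaving out an array of the fit of the 2 groups was added after the data were seen. P-values measure the spread between pools, and an exact permutation test of 3 against 3 pools cannot go below 0.1, so none was run.

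Counts in the text for lists give the members above 0, the members whose 3 and 3 pools do not overlap ("apart", "separate" or "without overlap") and the members called in the fit of the 2 groups. Over all genes 45.5% were above 0. Without overlap 4.26% were higher and 5.13% lower, and 0.281% were called higher. No list was tested. The members of the 47 lists were chosen with earlier results of these data known. Genes are named by rule: genes called in another setting (the 15 with the smallest p where there were more), the 15 largest differences in each direction among genes with separate pools and an unadjusted p under 0.05, genes the study names, and up to 4 members with the largest difference of each list. Other genes, among them 21 that were called or are list members, were named after their values were seen. Runx2, Sp7, Matn3 and Myl6b, for example, are not analysed here. On simulated data in which 200 of 31042 probe sets were changed, the 12-array fit recovered 93% of changes of 1 and 100% of changes of 2 on the log2 scale, and the fit of the 2 groups 91% and 100%. False calls numbered 11 and 8. The changed probe sets were drawn from all, and each probe set had the same normal spread in every group. In the data the 40 called genes had a median SE of 0.41 with 12 arrays, against 0.09 for genes outside the muscle lists, and unequal SDs between groups. The recovery shares therefore do not carry over to such genes. Promoters are from RefSeq tables of GRCr8. Tables and plots were made with Python 3.11.15, pandas 2.3.3, numpy 2.4.6 and matplotlib 3.10.9.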

Additional observations from a re-analysis of the deposited data

How the results depend on the processing

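With 3 pools a group and centred values, small differences and levels cannot be resolved. In the alternatives other than the 2 groups alone 0 genes were called, except 8 without LTBB OVX pool 3, 1 without STBB OVX pool 1 (Myh2) and 1 (Slc2a4) with a second quantile normalization, and 0 to 9 probe sets without 1 array. The fit of the 2 groups called 56 probe sets and 40 genes, and, leaving out in turn OVX pools 1, 2 and 3 and STBB OVX pools 1, 2 and 3, 18, 67, 5, 17, 0 and 2 probe sets and 11, 48, 9, 13, 0 and 5 genes. At an unadjusted p under 0.05 there were 669 genes with the 2 groups and, in the same order, 787, 1033, 501, 630, 680 and 642 without 1 of their arrays (1553 and 2040 probe sets without OVX pools 1 and 2), 689 genes and 1390 probe sets with the 9 arrays of OVX rats, 1175 and 2262 with array weights, 1035 and 2159 with quantile normalization, 233 and 477 with the probe sets of larger SD, and 293 to 637 genes without 1 of 12 arrays. Quantile normalization gave medians of 1.73 for the thick filament, 1.16 for the Z-disc, 0.84 for energy, 0.49 for calcium handling (0.41 with the probe sets of larger SD), 0.27 for myogenic, 0.51 for cartilage, 0.12 for collagen (0.0679 with array weights), -0.19 for proliferation, -0.31 for B cell and -0.20 for erythroid genes, and pool differences of 0.408 within OVX, 0.428 within STBB OVX and 0.438 between (0.413 between without muscle probe sets). With the deposited normalization the difference between groups was 0.226, and 0.196 without muscle probe sets. Without 1 array medians were 0.80 to 1.75 for the thick filament, 0.70 to 1.36 for the thin filament, 0.0407 to 0.0786 for collagen (0.0709 and 0.0762 without OVX pools 1 and 2, 0.0786 and 0.0700 without STBB OVX pools 1 and 3) and -0.10 to 0.00461 for osteoclast genes. The causes were not tested. No called gene reversed its direction. The 40 genes called in the fit of the 2 groups had separate pools, so leaving out or weighting arrays could not have reversed them.

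Replicate numbers did not pair the samples: deviations of pools with the same number correlated at -0.168, -0.157 and -0.047 over probe sets. With a replicate block 0 genes were called and 416 had an unadjusted p under 0.05, against 411 without it.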

Other observations

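Genes with a role in metabolism of muscle and fat were also read in other lists. Slc2a4, the insulin-responsive glucose transporter GLUT4, on the muscle energy list and the adipocyte list, read -0.38, -0.26 and -0.26 in OVX and 0.10, 0.12 and 0.08 in STBB OVX, with pools of each group close together (difference 0.40, adjusted p = 0.0575 by limma with 6 arrays). Cpt1b, the muscle form of the enzyme that admits fatty acids to mitochondria, differed by 0.34 (SE 0.15 with 12 arrays) and Hspb8, a small chaperone abundant in muscle, by 0.53 (SE 0.28). Pparg, the main regulator of fat cells, was lower at -0.20 (SE 0.13). The adipocyte list had a median of 0.02 over 26 genes, and the antioxidant and glutathione list a median of -0.01 over 42 genes. In the latter 0 were higher and 2 lower without overlap, against 4.26% and 5.13% of all genes, and 0 had an unadjusted p under 0.05.

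Cxcl13, a chemokine that attracts B cells, had the largest difference of the chemokine list at 0.81 (SE 0.45), but STBB OVX pool 1 at -0.06 lay below OVX pool 2 at 0.91. Among the genes that were higher in STBB OVX with separate pools and not higher in Sham were further matrix and cartilage genes, named after their values were seen: Clec3a, a cartilage lectin, differed by 0.49 (SE 0.19), Matn2, a matrix adaptor protein, by 0.45 (SE 0.14) and Capn6, a calpain without protease activity, by 0.44 (SE 0.12). In each of them STBB OVX pool 1 was the highest pool of the 6. Their adjusted p was 1 by limma with 12 arrays.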
